A study of Mus musculus with 8 samples.

Results

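Morf4l1 and 9 further genes of the NuA4/TIP60 complex were described in mouse multipotent progenitors (MPPs) sorted from bone marrow. The 10 genes (Morf4l1, Morf4l2, Mrgbp, Kat5, Ep400, Trrap, Brd8, Dmap1, Epc1 and Epc2) were taken by symbol from the 37980 rows of the deposited gene table, and each was above the filter on low values that left 11451 genes to test. They were selected on measured values of the same 8 libraries, since the difference in Morf4l1 between the groups was already known, so their levels and differences are a description. The count of members past the threshold of the fit over all genes is given beside the share over all genes, and nothing is read from it. RNA was sequenced from 4 NA MPP libraries (NA1 to NA4) and 4 WT MPP libraries (WT1 to WT4). Each library came from 1000 sorted cells that were negative for lineage antigens, CD48 and CD150 and positive for ckit, Sca1 and CD135. NA mice carried the Nup98-Hoxa10hd fusion gene, which joins part of a nucleoporin to the homeodomain of HOXA10, as NA LSL/+ with Vav-Cre, so that the fusion was switched on from the Rosa26 locus in the blood lineage. WT mice were age-matched CD45.2 animals, the strain of both groups was C57BL/6, and the age itself and the number of animals behind each library are not given in the sources used here, so the spread between libraries may be in part technical.

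NuA4/TIP60 is a large multi-subunit complex that acetylates the tails of nucleosomal histones and exchanges histone variants. Its acetyltransferase, KAT5, is held on chromatin by scaffold and reader subunits, and the chromodomain protein MORF4L1, also called MRG15, binds methylated histone tails and works in several other chromatin complexes as well. In blood-forming cells the complex is known for its part in gene activation by MYC, in the response to DNA breaks and in the maintenance of stem cells.

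The values are normalised counts, that is, estimated read counts that the authors divided by a size factor for each library. The libraries held an estimated 3876907 to 4916988 reads, so that 1 read was worth 0.888 to 1.18 normalised counts. The groups also differed in other ways. Xist, the RNA of the inactive X chromosome, was at 0.94 to 2.8 normalised counts in NA and 868.6 to 1285 in WT libraries, and Eif2s3y, a Y-linked gene, was at 516 to 667 in NA and 0 to 0.888 in WT libraries, so that genotype and sex cannot be told apart. Fos, an early-response gene, was at 19676 to 21297 in NA and 804 to 3154 in WT libraries, and its part in the results below was not tested. Hoxa10, whose reads can come from the fusion and from the gene itself, was at 298 to 371 in NA and 129.6 to 149 in WT libraries. Of the sort markers, Kit (ckit), Ly6a (Sca1) and Flt3 (CD135) were at 1103 normalised counts or more in all 8 libraries, as was Cd34, which was not sorted on. Cd48 was at 12.2 to 22.4 in NA and 34.2 to 83.8 in WT libraries and was lower in NA (limma adjusted p = 0.00711), and Slamf1 (CD150) was at 3.69 to 47.9 and 16.9 to 30.6. Ly6a was also lower in NA, at 1221 to 1408 against 1482 to 1614 (limma adjusted p = 0.0257), and the part of these differences in the results below was not tested. Of 19 markers of lineage-positive cells, 8 were at 0 in every library (Ms4a1, Pax5, Cd3e, Cd3d, Cd8a, Cd2, Ly6g and Elane). The 19 together summed to 124 to 207 in NA and 309 to 451 in WT libraries. Of the 5 that were tested, 0 were called higher in NA and 1 lower. This was Hbb-bt, at 28.35 to 56.4 in NA and 130.9 to 184.7 in WT libraries (limma adjusted p = 6.79e-05). S100a9 was at 158.3 in WT3 and at most 47.94 in the other libraries. The part of these markers in the results below was not tested. The fourth library of each group lay nearest to a weighted sum of the other 3 libraries of its group, with a median difference over genes of 7.08% for NA4 (8.05% to 12.3% for the others) and 4.82% for WT4 (6.75% to 10.01% for the others), so each main count is given with and without both. Whether these are independent samples is not given in the sources used here. Were they not, n would be below 4 a group and the errors and p-values below would be too small.

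The stretch upstream of a gene start is where a homeodomain protein could bind, and the 250 bases before the RefSeq start are therefore shown for Morf4l1, the member with the largest difference, and for Mrgbp, whose protein binds MORF4L1 and whose groups overlapped. Both are from GRCm38.p6. The Morf4l1 stretch is chr9:90114821-90115070 on the minus strand and the Mrgbp stretch is chr2:180580972-180581221 on the plus strand. Capitals mark TTTAT, a core word of posterior HOX sites, read on either strand.
Morf4l1: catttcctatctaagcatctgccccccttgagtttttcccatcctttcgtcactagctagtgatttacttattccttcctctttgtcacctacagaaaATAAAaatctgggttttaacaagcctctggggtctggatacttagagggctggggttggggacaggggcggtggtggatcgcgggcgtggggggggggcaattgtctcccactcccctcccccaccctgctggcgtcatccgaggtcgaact
Mrgbp: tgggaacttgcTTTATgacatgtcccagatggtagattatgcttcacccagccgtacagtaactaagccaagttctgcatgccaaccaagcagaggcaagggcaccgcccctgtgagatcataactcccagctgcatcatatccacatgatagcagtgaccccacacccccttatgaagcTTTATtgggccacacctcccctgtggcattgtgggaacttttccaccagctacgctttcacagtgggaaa
The Morf4l1 stretch held the word 1 time and the Mrgbp stretch 2 times. RefSeq windows of 300 bases around the start were matched for 8 of the 10 members, giving 12 windows, since some members have several starts. TTTAT was in 2 of these 12 windows, while 40.01% of all 32851 windows held it. The MEIS word TGACAG was in 1 of the 12 (Kat5) and in 19.2% of all windows. The combined word TGATTTAT, which contains TTTAT, was in 0 of the 12 and in 0.977% of all windows. GC content of the member windows ran from 47.7% to 79.7% with a median of 56.65%, beside a median of 52.7% over all windows. These are matches of letters on both strands and not measured binding.

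Morf4l1 had the largest difference of the 10 members, and it was higher in NA than in WT libraries. Morf4l1 (ENSMUSG00000062270, mm10 chr9:90091665-90114774, minus strand) was at 2379, 2530, 3063 and 2724 normalised counts in NA1 to NA4 and at 736, 843, 878 and 724.5 in WT1 to WT4. The lowest NA library stood far above the highest WT library, and the groups did not overlap. The means were 2674 ± 295 in NA and 795 ± 76.6 in WT (SD, n = 4 each), a ratio of 3.36 and a difference of 1.75 ± 0.097 (SE) on the log2(normalised count + 1) scale. Of the 11451 genes tested, 139 had a larger log2 difference.

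Morf4l2, the X-linked paralogue that encodes MRGX, was also higher in NA libraries, by a smaller amount. Morf4l2 (ENSMUSG00000031422, chrX:136732942-136743690, minus strand) was at 1078, 1044, 1206 and 1118 normalised counts in NA1 to NA4 and at 536, 736, 689 and 649.9 in WT1 to WT4. The groups did not overlap. Its means were 1112 ± 69.7 and 653 ± 85.3, a log2 difference of 0.77 ± 0.10 (SE). Because sex and genotype cannot be told apart here, its X linkage was set beside all tested X-linked genes, with Morf4l2 and Xist included. Their median log2 difference over 389 tested genes was 0.05, and 37 of them had a larger difference than Morf4l2.

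The paralogues kept different proportions in the groups. The ratio of Morf4l1 to Morf4l2, each per kilobase of its longest transcript, was 0.949, 1.04, 1.09 and 1.05 in NA1 to NA4 and 0.590, 0.492, 0.548 and 0.480 in WT1 to WT4. Every NA library had the higher ratio. The mean ratio was 1.96 times as high in NA as in WT, and this fold does not depend on the transcript length used.

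Mrgbp encodes the adaptor that joins the MRG proteins to the complex, and it was not higher in NA libraries. Mrgbp (ENSMUSG00000027569, chr2:180581304-180586304, plus strand) was at 421, 209.6, 279.8 and 313 normalised counts in NA1 to NA4 and at 388, 339.7, 299 and 335 in WT1 to WT4. NA1 was above every WT library and NA2 and NA3 below every one, so the groups overlapped. The log2 difference was -0.19 ± 0.17 (SE). The ratio of Morf4l1 to Mrgbp per kilobase of the longest transcript was 6.34 ± 1.92 in NA and 1.61 ± 0.302 in WT (SD, n = 4 each).

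**Figure D1:**
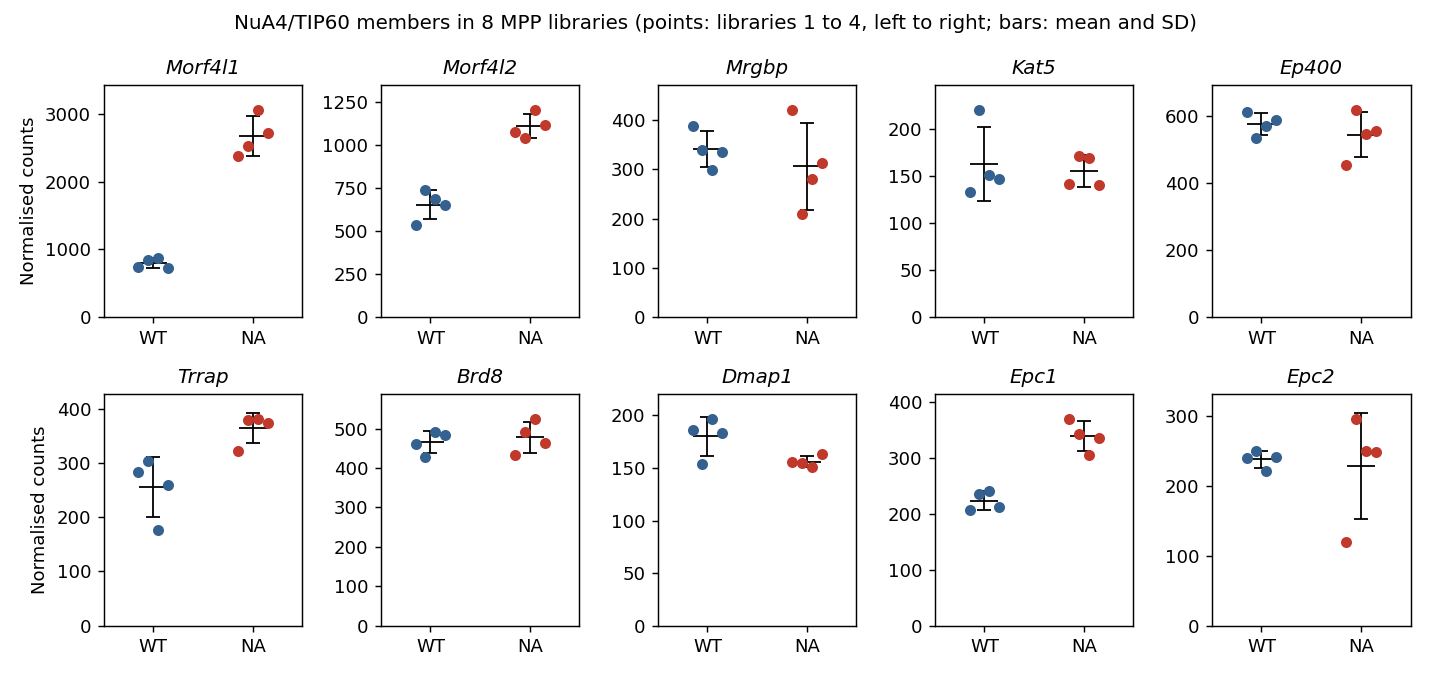
Normalised counts (linear axes from 0) of each of the 10 members in the 4 WT and the 4 NA MPP libraries; points are libraries, and the black bars give the mean and SD. The points of Morf4l1, Morf4l2, Trrap and Epc1 do not overlap between the groups, and those of the other 6 members do.

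The enzymatic members Kat5 and Ep400 had overlapping groups. Kat5 (ENSMUSG00000024926, chr19:5603014-5610237, minus strand), the acetyltransferase TIP60, was at 142, 172, 169 and 140.5 normalised counts in NA1 to NA4 and at 133, 221, 151 and 146.5 in WT1 to WT4. WT2 was the highest of all 8 libraries and WT1 the lowest, and the log2 difference was -0.04 ± 0.17 (SE). Ep400 (ENSMUSG00000029505, chr5:110664373-110770717, minus strand), the ATPase that remodels nucleosomes and exchanges histone variants, was at 455.5, 619.5, 547 and 556 in NA1 to NA4 and at 613, 536, 571.5 and 588 in WT1 to WT4. Both the lowest and the highest library were NA, and the log2 difference was -0.09 ± 0.11 (SE).

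Among the scaffold subunits, Trrap was higher in NA libraries, with 1 low library in each group. Trrap (ENSMUSG00000045482, chr5:144767732-144859778, plus strand), a very large protein that contacts transcription activators such as MYC, was at 323, 379.8, 382 and 374 normalised counts in NA1 to NA4 and at 283, 303.5, 176.5 and 259 in WT1 to WT4. NA1 lay below the other NA libraries and WT3 below the other WT libraries, and NA1 was still above the highest WT library. The means were 365 ± 28.1 and 256 ± 55.8, a log2 difference of 0.54 ± 0.16 (SE). Its log2 difference lay between 0.37 and 0.63 in 20 alternative fits, but it passed the threshold in only 10 of these 20. It did not pass, for example, without WT3, with libraries scaled to equal totals or with no variance trend.

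The enhancer-of-polycomb paralogues, which tie the acetyltransferase to the nucleosome, differed from each other. Epc1 (ENSMUSG00000024240, chr18:6435951-6516108, minus strand) was at 370.6, 343, 306 and 337 normalised counts in NA1 to NA4 and at 208, 236, 240.2 and 212 in WT1 to WT4. The groups did not overlap, with means of 339 ± 26.7 and 224 ± 16.3 and a log2 difference of 0.60 ± 0.12 (SE). Epc2 (ENSMUSG00000069495, chr2:49451486-49551948, plus strand) was at 119.5, 297, 250.2 and 249.2 in NA1 to NA4 and at 239.7, 250.3, 222 and 242 in WT1 to WT4. The lowest and the highest of the 8 libraries were NA1 and NA2, and the log2 difference was -0.14 ± 0.22 (SE). Without NA1 the log2 difference of Epc2 was 0.15, so its sign rests on that library. The ratio of Epc1 to Epc2 per kilobase was 3.67, 1.37, 1.45 and 1.60 in NA1 to NA4 and 1.03, 1.11, 1.28 and 1.04 in WT1 to WT4. NA1 stood apart in this ratio, and the other NA libraries were also above every WT library.

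The reader and adaptor subunits Brd8 and Dmap1 had overlapping groups. Brd8 (ENSMUSG00000003778, chr18:34598615-34624601, minus strand), which encodes a bromodomain protein, was at 433, 492, 525 and 463 normalised counts in NA1 to NA4 and at 462, 428, 491 and 483 in WT1 to WT4. Its log2 difference was 0.04 ± 0.10 (SE), and with libraries scaled to equal totals it was -0.03. Dmap1 (ENSMUSG00000009640, chr4:117674681-117682273, minus strand), named for its association with the DNA methyltransferase DNMT1, was at 156, 155, 150.5 and 163 in NA1 to NA4 and at 186, 154, 197 and 183 in WT1 to WT4. WT2 lay below 3 of the NA libraries while the other 3 WT libraries lay above all NA libraries, and the log2 difference was -0.20 ± 0.14 (SE).

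Over the 10 members, 4 passed the limma threshold and were higher in NA (Morf4l1, Morf4l2, Trrap and Epc1), 0 passed it and were lower, and the same 4 had groups that did not overlap. Over all genes tested, 17.9% passed (2053 genes), 10.1% higher and 7.87% lower in NA, and 22% had groups that did not overlap. Since the members were chosen with this contrast known, nothing is read from their count. Without the fourth library of both groups 2 members passed (Morf4l1 and Morf4l2), beside 515 genes in all. The median log2 difference of the 10 members was -0.003, beside -0.011 over all genes tested. Of the 6 members that did not pass, each lay between -0.20 and 0.04.

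**Figure D2:**
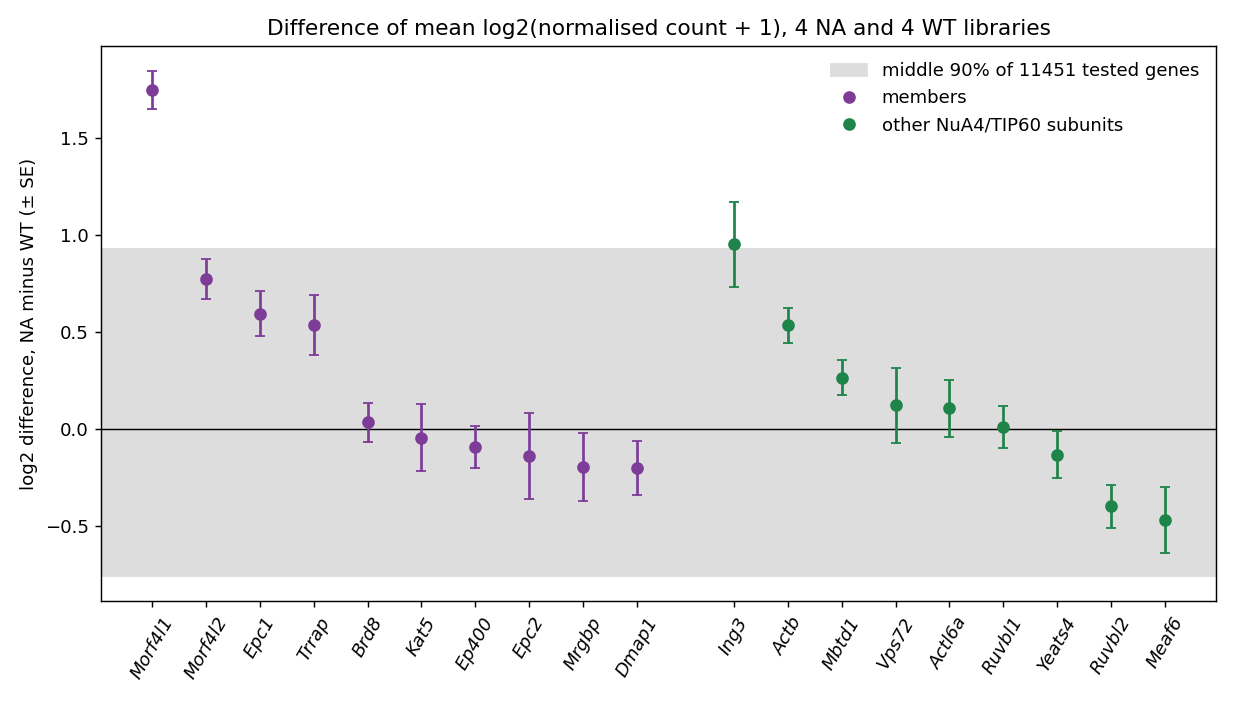
Log2 difference (NA minus WT, with its SE) of the 10 members and of 9 other NuA4/TIP60 subunits, over a grey band that holds the middle 90% of the 11451 tested genes, from -0.76 to 0.93. Morf4l1 at 1.75 lies above the band, Ing3 at 0.95 just above its upper edge, and the others within it.

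The order of the members by level was set per kilobase of the longest annotated transcript. In WT libraries it ran from Morf4l2 at 327 ± 42.7 normalised counts per kilobase, through Morf4l1 at 171 ± 16.5, Mrgbp at 108 ± 11.6, Brd8 at 104 ± 6.27, Dmap1 at 96.7 ± 9.87, Kat5 at 72.6 ± 17.5, Epc1 at 56.5 ± 4.12, Ep400 at 54.0 ± 3.02 and Epc2 at 50.8 ± 2.54, to Trrap at 20.5 ± 4.47 (SD, n = 4). Of the 9 pairs of neighbours in this order, 6 overlapped, namely every pair from Mrgbp down to Epc2. In NA libraries Morf4l1 at 576 ± 63.6 and Morf4l2 at 557 ± 34.9 overlapped at the top, Brd8 followed at 107 ± 8.83, and Epc1 moved from place 7 to place 5 at 85.5 ± 6.73. Trrap was last in both groups, at 29.2 ± 2.25 in NA, where its values overlapped those of Epc2. Of the 9 pairs of neighbours in the NA order, 6 overlapped.

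The place of Morf4l1 depends on which transcript carries its reads. Its longest transcript has 4640 bases and its longest protein-coding one 1882, against 1996 bases for Morf4l2 on both counts. Per kilobase of the longest protein-coding transcript, a choice made after seeing the data, Morf4l1 was above Morf4l2 in WT as well, at 423 ± 40.7 against 327 ± 42.7, and at 1421 ± 157 against 557 ± 34.9 in NA. That length changed the place of 4 of the 10 members and the median transcript length changed that of 7. By median transcript length Ep400 moved from place 8 to place 2 in WT. It was then at 592 ± 33.1, above Morf4l1 at 576 ± 55.5.

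**Figure D3:**
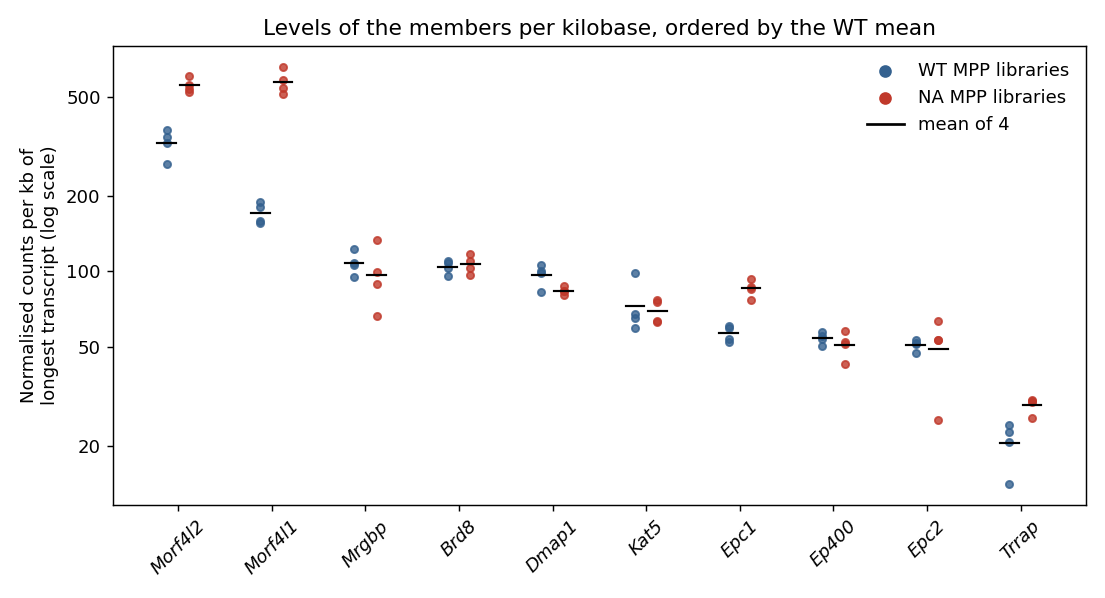
Normalised counts per kilobase of the longest transcript (log scale) of the 10 members, ordered by their WT mean, in the WT and NA MPP libraries; points are libraries and short lines the means of 4. Morf4l2 and Morf4l1 stand above the rest in both groups, the members from Mrgbp to Epc2 run into one another in WT, and Trrap is last.

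Summed per kilobase, the 10 members reached 1705 ± 99.3 in NA and 1062 ± 54.9 in WT libraries (SD, n = 4 each). The 8 members other than Morf4l1 and Morf4l2 summed to 565, 575, 575 and 573 in NA1 to NA4 and to 569, 572, 554 and 559 in WT1 to WT4. These sums overlapped, at 572 ± 4.66 and 563 ± 8.67, and nearly all of the higher sum in NA lay in the MRG paralogues. Per kilobase of the longest protein-coding transcript the 8 summed to 696 ± 25.99 in NA and 702 ± 19.1 in WT, so which group was higher turned with the length used. The sum hides the higher Trrap and Epc1, since means that differed in opposite directions offset each other in it. Per kilobase of the longest transcript, Epc1 (56.5 in WT, 85.5 in NA), Trrap (20.5 and 29.2) and Brd8 (104 and 107) had higher NA means. Mrgbp (108 and 97.1), Dmap1 (96.7 and 83.8), Kat5 (72.6 and 69.4), Ep400 (54.0 and 51.0) and Epc2 (50.8 and 48.8) had lower means. Of these genes only Epc1 and Trrap passed the threshold. In bulk RNA of sorted cells, fewer cells with a transcript and less of it per cell cannot be told apart.

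Transcripts of 9 other GENCODE genes share at least 100 aligned bases with Morf4l1 at 90% identity or more. They are 7 processed pseudogenes, the protein-coding Olfr912 and the lincRNA Gm26882 on the opposite strand, and 3 of the pseudogenes are rows of the table used here. Gm4835, a processed pseudogene, was at 18.7, 25.4, 25.9 and 22.4 normalised counts in NA1 to NA4 and at 5.33, 2.26, 4.55 and 3.55 in WT1 to WT4. Gm5564, another, was at 6.53, 9.4, 20.3 and 5.91 in NA1 to NA4 and at 1.78, 1.13, 3.42 and 0 in WT1 to WT4. Both rest on at most 28 reads a library and were higher in NA, the group in which Morf4l1 itself was higher, and reads of a gene and its copies can be swapped in counting. Gm12807 was at 0 in all 8 libraries. Gm4835 came to at most 1.003% and Gm5564 to at most 0.663% of Morf4l1, and Morf4l1 with these 3 added had a log2 difference of 1.75.

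Other members have fewer such overlaps. Kat5 shares 426 bases with Rnaseh2c on the opposite strand, and since strand use in counting is not given in the sources used here, reads of these neighbours cannot be told apart there. Rnaseh2c was at 43.7 to 80.3 normalised counts in NA and 71.9 to 101 in WT libraries. The Ep400 copy Gm12928 was at 0 in all libraries.

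The genes whose pattern over the 8 libraries was most like that of Morf4l1 were found among the 8999 tested genes that averaged 50 normalised counts or more. Likeness was the root mean square difference of log2(normalised count + 1) values after each gene was centred on its own mean. The nearest were Hoxa5 at 0.152, a homeobox gene of blood progenitors, Ppp1cb at 0.176, a catalytic subunit of protein phosphatase 1, Prdx3 at 0.185, a mitochondrial peroxidase, Qrich1 at 0.193, and Nadk2 at 0.196, the mitochondrial NAD kinase, beside a median of 0.919 over the 8999. Hoxa5 had means of 570 ± 80.0 normalised counts in NA and 185 ± 35.1 in WT, and Ppp1cb had 2348 ± 58.2 and 863 ± 88.4 (SD, n = 4 each). Prdx3 had 792 ± 69.8 and 247 ± 24.3. Any gene with a like difference between the groups and little spread ranks high by this measure. Among the other members, Morf4l2 ranked 204, Epc1 477 and Trrap 801, and the remaining 6 ranked from 3391 to 6637.

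**Figure D4:**
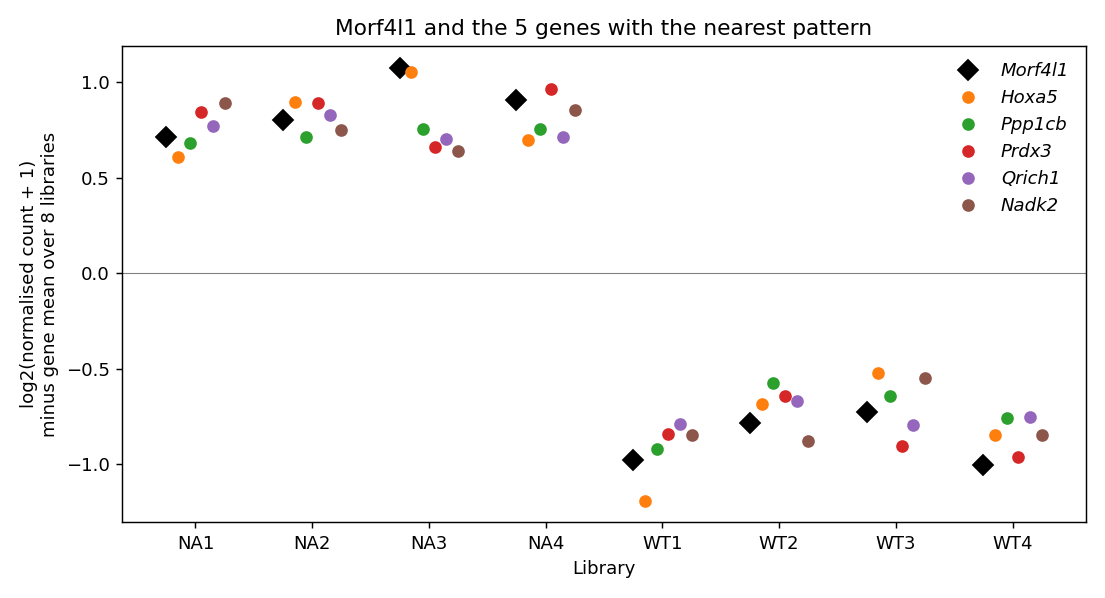
Log2(normalised count + 1) minus the gene's mean over the 8 libraries (vertical axis) in each library (horizontal axis) for Morf4l1 (black diamonds) and the 5 genes with the nearest pattern (dots). In all 6 genes every NA library lies above 0 and every WT library below it; Morf4l1 runs from 0.71 to 1.08 in NA and from -1.003 to -0.73 in WT.

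Of 9 further NuA4/TIP60 subunits, taken from a list of the complex, 2 were higher and 1 was lower in NA. The test was limma with Benjamini-Hochberg adjustment over all genes tested, of which 10.1% were higher and 7.87% lower, as given above. This list and the related lists below were chosen with earlier results of these data known, so their counts are a description. Ing3, a reader of methylated histone tails, was at 169.9, 226.5, 282.5 and 270.5 normalised counts in NA1 to NA4 and at 113, 177, 84.3 and 122.5 in WT1 to WT4. It rose by 0.95 ± 0.22 (log2, SE; limma adjusted p = 0.00875), although NA1 was below WT2. Actb, which encodes the actin of the complex and of the cytoskeleton, was at 7712 to 9786 in NA and 5360 to 6558 in WT libraries and rose by 0.54 ± 0.091 (limma adjusted p = 0.00138). Ruvbl2, a AAA+ ATPase shared with other remodellers, was at 417 to 563 in NA and 588 to 698 in WT libraries, and fell by 0.40 on the log2 scale (limma adjusted p = 0.0234), a call that held in 12 of 20 alternatives.

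The other 6 subunits did not pass. Ruvbl1, the partner of Ruvbl2, had means of 931 ± 156 normalised counts in NA and 914 ± 52.4 in WT. Mbtd1, a reader of methylated histone tails, was at 963 to 1222 in NA and 882 to 954 in WT libraries, with a log2 difference of 0.27 ± 0.091 (limma adjusted p = 0.0563). Meaf6 had 140 ± 31.0 and 191 ± 17.4, with a log2 difference of -0.47 ± 0.17 (limma adjusted p = 0.0699). Yeats4, which binds acetylated histone tails, had 341 ± 18.7 and 376 ± 56.5, Actl6a had 166 ± 12.4 and 155 ± 20.5, and Vps72, a chaperone of the variant histone H2A.Z, had 107 ± 19.2 and 98.04 ± 14.1 (SD, n = 4 each). The median log2 difference of the 9 was 0.11. It was 0.015 without WT3, 0.027 without NA1, 0.044 without WT2, 0.071 without NA3, 0.043 with log2 depth as a covariate and 0.039 with libraries scaled to equal totals. Without the fourth library of both groups, Actb alone passed.

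Complexes that share a partner or an activity with the members were described by 3 lists with 42 genes tested. Of these 42, 4 were higher and 4 lower in NA, 19.0% of them in all beside 17.9% of all genes tested. The 6 SRCAP and H2A.Z genes had none that passed, with log2 differences from -0.89 (Znhit1, adjusted p = 0.0922 by limma) to 0.19 (Anp32e, a chaperone that removes H2A.Z, adjusted p = 0.187 by limma) and a median of 0.05, which was -0.071 without WT2, -0.012 without NA4, -0.073 with the GC trend removed and -0.023 with libraries scaled to equal totals. At an unadjusted p under 0.05, 1 of the 6 passed (Znhit1), and voom called 0 of them.

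The 21 genes of MRG15 partner complexes, which include the SIN3-HDAC co-repressor and the H3K36 methyltransferases, had 1 higher and 2 lower (10.1% and 7.87% over all genes tested), with a median of 0.13. Sap30, a SIN3 subunit, was at 143.8, 121, 176 and 142 normalised counts in NA1 to NA4 and at 17.8, 20.4, 20.5 and 32.0 in WT1 to WT4. The groups did not overlap, and it rose by 2.66 ± 0.24 on the log2 scale (limma adjusted p = 8.19e-06). Brms1, which also joins SIN3-HDAC complexes, was at 29.1 to 91.4 in NA and 106.5 to 139 in WT libraries and fell by 1.16 on the log2 scale (limma adjusted p = 0.0135). This call held in 17 of 20 alternatives and was lost without NA4, without the fourth library of both groups and with no filter on low values. Hdac1, the deacetylase, fell by 0.48 (limma adjusted p = 0.0407), with an overlap between WT2 at 232.2 and NA1 at 232.4 normalised counts, and its call held in 10 of 20 alternatives.

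The 15 genes of other MYST and MSL acetyltransferase complexes had 3 higher and 2 lower, beside the same shares over all genes, with a median of 0.02. Brpf1, Msl2 and Jade1, which encode scaffold or partner subunits of these complexes, rose by 0.57 ± 0.15, 0.55 ± 0.16 and 0.54 ± 0.11 (log2, SE), with limma adjusted p = 0.0185, 0.0272 and 0.00516. Kat8, the acetyltransferase of the MSL complex, was at 74.3 to 154 normalised counts in NA and 162 to 260.5 in WT libraries and fell by 0.78 on the log2 scale (limma adjusted p = 0.0264). Ing4, a reader of methylated histone tails that is named after its values were seen, fell by 0.39 (limma adjusted p = 0.0108), from 842 ± 56.2 in WT to 645 ± 49.0 in NA (SD, n = 4 each). The calls of Msl2 and Kat8 held in 12 of 20 alternatives each, and that of Brpf1 in 16. Without the fourth library of both groups, 1 of the 8 genes called over the 3 lists passed (Sap30).

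**Figure D5:**
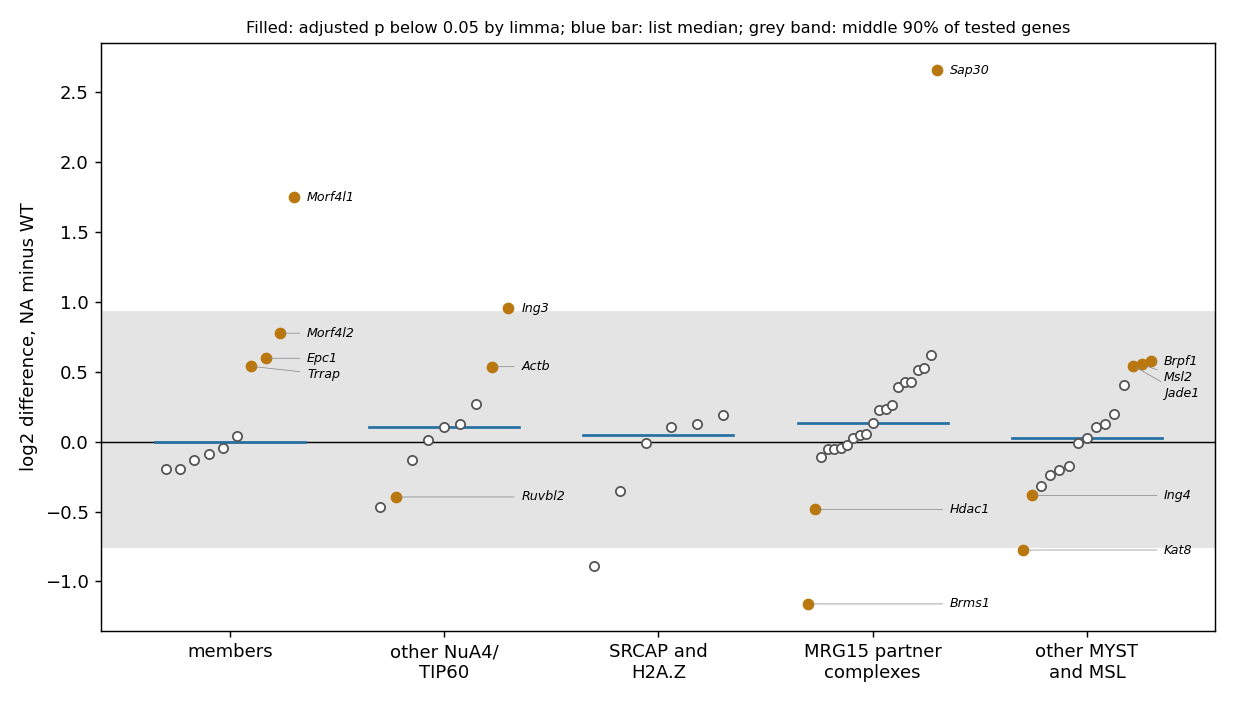
Log2 difference (NA minus WT) of every gene of the 5 lists; filled points passed an adjusted p of 0.05 by limma, blue bars are list medians and the grey band holds the middle 90% of tested genes. Sap30 at 2.66 and Morf4l1 at 1.75 stand highest, Brms1 at -1.16 lowest, and no list lies wholly on 1 side of 0.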

How the data were processed

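RNA was amplified from 1000 sorted cells per library and sequenced after tagmentation. Per the labels and the methods, the authors quantified genes with RSEM on mm10 and used DESeq2. The file name of the deposited table speaks of raw counts. The deposited values are a count signal that the authors had divided by a size factor for each library: 98.4% to 98.9% of values between 0.5 and 100 were whole multiples (tolerance 0.05) of 1 step per library. Negative binomial count models were therefore not used. Of 37980 rows, 32916 were named with GENCODE M21 (GRCm38), and unnamed rows held 0.779% of the summed values.

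A gene was tested if 4 or more of the 8 libraries reached 10 normalised counts. The 4 NA and 4 WT libraries were compared by limma 3.58.1 (R 4.3.3) on log2(normalised count + 1) with a variance trend and Benjamini-Hochberg adjustment at 0.05. The fold changes of low genes are understated on this scale. Lengths came from GENCODE transcripts, copies from minimap2 2.31 and promoter windows from RefSeq (GRCm38.p6). The members and the gene lists were chosen with earlier results of these data known. All members were given in every library, all other subunits were named, and of each related list up to 4 called genes and the extremes, with Ing4 and the copies as additions. The replicate numbers did not pair the libraries.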

Additional observations from a re-analysis of the deposited data

Results flagged for a closer look

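In 38 groups of 4 libraries (the members and the other NuA4/TIP60 subunits in each group), 4 had a library farther from the rest than Dixon's 95% limit allows, and about 1.9 would by chance. Trrap was lowest in NA1, at 323 normalised counts beside 374, 379.8 and 382 in the other NA libraries. Ruvbl1 was highest in NA1, at 1164 beside 831, 864.5 and 865. Actb was highest in NA3, at 9786 beside 7712, 7842 and 7913, and in WT3, at 6558 beside 5360, 5444 and 5549.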

How the results depend on the processing

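Counts of members past the threshold are a description, since the same contrast chose them. Over the 20 alternatives run the log2 difference of Morf4l1 lay between 1.60 and 1.80. No sign changed for Morf4l1, Morf4l2, Trrap or Epc1, while Kat5 and Brd8, near 0, changed sign in 4 each and Epc2 in 1. The calls of Morf4l1 and Morf4l2 held in all 20 alternatives, that of Epc1 in 19 and that of Trrap in 10. With the fourth library of both groups left out, 515 of the tested genes passed in place of 2053, 2 members in place of 4, 1 other NuA4/TIP60 subunit in place of 3 and 1 gene of the related complexes in place of 8; that fit has fewer samples. Leaving out 1 library at a time gave 1106 (without NA4) to 2141 (without NA3) genes in all, 1294 without WT4, 3 to 4 members, 2 to 4 other subunits and 4 to 12 genes of the related complexes (4 without NA4, 5 without NA2 or WT4, 12 without NA1). The related complexes had 4 calls with no filter on low values, 5 with no variance trend and 5 with log2 depth as a covariate, and the cause was not tested. The median log2 difference of the members was -0.003 and became 0.12 without NA1. Scaling libraries to equal totals moved the median of all genes from -0.011 to -0.079 and the share of higher genes among those called from 56.1% of 2053 to 41.3% of 2239. With the replicate block 2004 genes, 4 members, 3 other subunits and 8 genes of the related complexes passed; the deviations of libraries with the same number correlated at 0.0131 to 0.158, and only NA1 and NA4 correlated best with their own number. Voom on estimated reads, added after seeing the data, called 2027 genes and 4 members. The planned edgeR and DESeq2 fits were not run because the table holds scaled values, not all of which came out as whole reads; voom does not need whole numbers. With 4 libraries a group, small differences may have been missed, and how small is not given here.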
